A study of Mus musculus with 6 samples.

Results

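Arginine can be turned into ornithine by arginase and from there into the polyamines, and 10 genes of this route were followed in mouse colonic organoids: Arg1, Arg2, Ass1, Odc1, Oaz1, Azin1, Amd1, Srm, Sms and Sat1. They were taken by gene symbol from a deposited table of 40840 genes, and all 10 had a row. The table gave TPM, a transcript level scaled to the same total in every library and corrected for transcript length, so that levels of different genes in a library can be set side by side.

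The 3 DSS organoid libraries came from wild-type C57BL/6 mice that had drunk 2.5% dextran sodium sulfate (DSS), an agent that damages the colonic epithelium and causes colitis. DSS was given in 2 rounds of 5 days, the first at 10 weeks of age and the second after a gap of 2 weeks. Organoids were set up on day 14 after DSS. The 3 control organoid libraries came from wild-type C57BL/6 mice without DSS, whose age the labels do not give. In both groups crypts were stripped from the colon, embedded in Matrigel in a medium that contains L-WRN conditioned medium and inhibitors of p38, TGF-beta receptor and ROCK kinases, and lysed on day 4 of culture. The libraries were made from different mice, 1 for each library, so n = 3 in each group. The comparison asks which RNA levels still differed in cultured organoids after the mice had been through DSS.

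Polyamines (putrescine, spermidine and spermine) are small cations that bind nucleic acids and are needed for growth and translation, and the renewing gut epithelium is rich in their synthesis. Ornithine decarboxylase makes putrescine, and spermidine synthase and spermine synthase add aminopropyl groups that come from decarboxylated S-adenosylmethionine. Antizymes bind ornithine decarboxylase and deliver it to the proteasome, antizyme inhibitors hold antizymes back, and an acetyltransferase marks polyamines for breakdown or export.

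In DSS organoids Arg1, the cytosolic arginase, rose 22.8-fold by the ratio of mean TPM (11.6-fold without DSS replicate 2), and Oaz1, the main antizyme, rose 1.65-fold. Srm, spermidine synthase, fell to 0.659 of its control level. Odc1, Azin1, Sat1 and Ass1 had overlapping levels in the 2 groups. Amd1 was lower and Sms higher in all 3 DSS libraries than in all 3 control libraries, but neither passed the test across genes.

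The test was limma on log2(TPM + 1), with Benjamini-Hochberg adjustment over the 11643 genes with a mean of at least 1 TPM and a threshold of 0.05 on the adjusted p. Of the 9 genes of the set that it covered, 2 were higher in DSS organoids and 1 was lower, where 10.3% of all tested genes passed, 6.45% as higher and 3.89% as lower. Arg2 was under the filter and was not tested. Arg1, with a control mean of 0.78 TPM, reached the filter through its DSS libraries, so it could pass only as higher. Among the 9 tested genes, 3 had every DSS library above every control library and 2 had every DSS library below, against 36.4% of all tested genes without overlap (21.1% above and 15.3% below). The median log2 fold change was 0.032 over the 9 genes and 0.050 over all tested genes. Fold changes on the log2(TPM + 1) scale understate the change of genes with low levels.

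With 3 mice in each group the calls were sensitive to the libraries. Of all tested genes, 1204 passed with all 6 libraries. Without control replicate 1, 2 or 3 the count was 140, 44 or 148, and without DSS replicate 1, 2 or 3 it was 2515, 1888 or 103. Each library had between 11328 and 11607 genes at 1 TPM or more. TPM keeps no record of sequencing depth, so the depth behind a value is unknown, and no counting interval can be given. DSS replicate 1 stood apart from the other DSS libraries on the second principal component, which held 25.2% of the variance. Epithelial markers were high throughout, with 10 of 10 tested and sums between 14127 and 20320 TPM in DSS organoids and between 18199 and 19629 TPM in control organoids; Krt8 had the highest mean in both groups, and 2 of the 10 (Epcam and Cdx2) passed the test as higher.

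**Figure D1:**
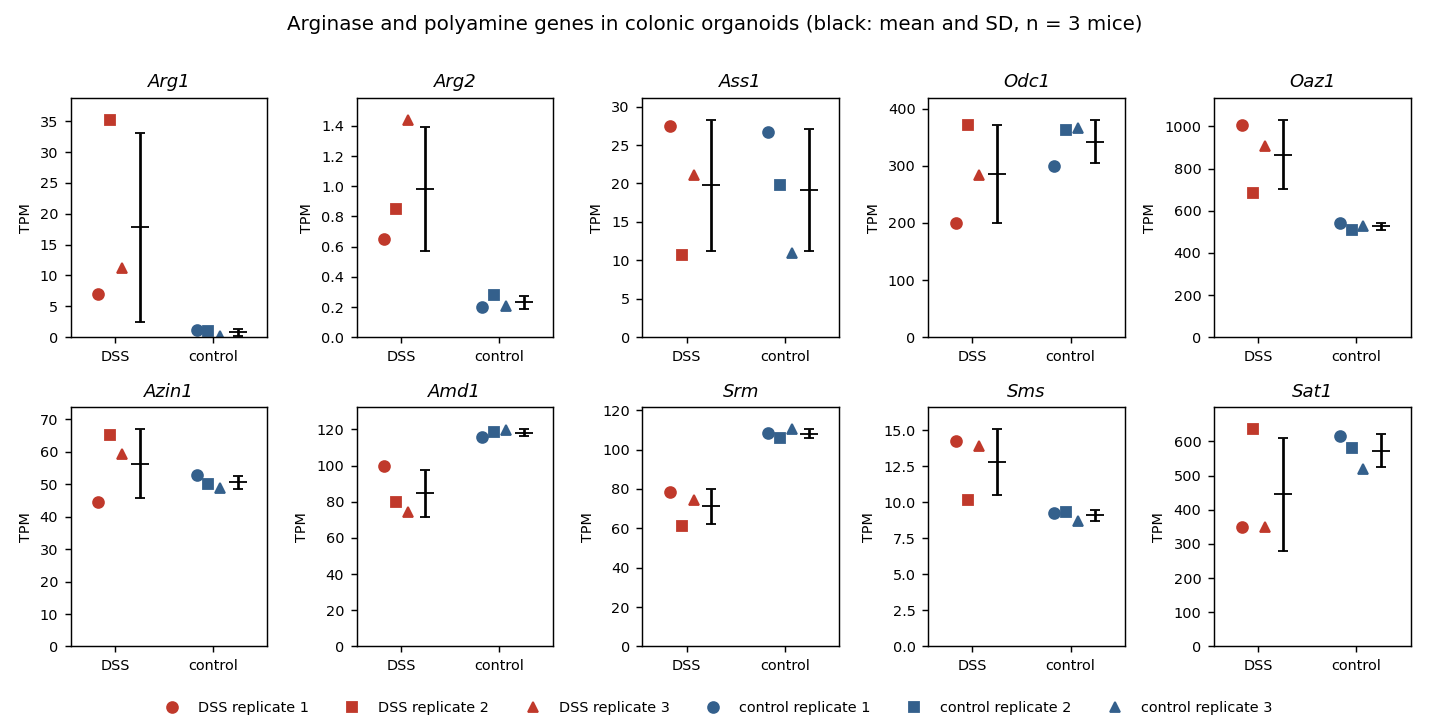
TPM (vertical axes, from 0) of the 10 arginase and polyamine genes in each of the 3 DSS libraries (red) and the 3 control libraries (blue), with the symbol giving the replicate and black bars the mean and SD. The DSS libraries of Arg1, Arg2, Oaz1 and Sms all sit above the control libraries, those of Amd1 and Srm all sit below, and the other 4 genes overlap.

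Arginases hydrolyse arginine to ornithine and urea. Arg1, known from liver and from macrophages, had 6.98, 35.2 and 11.1 TPM in DSS replicates 1, 2 and 3, against 1.16, 0.98 and 0.2 TPM in control replicates 1, 2 and 3. The groups did not overlap, and DSS replicate 2 was well above the other 2 DSS libraries. The means were 17.8 ± 15.2 TPM in DSS organoids and 0.78 ± 0.51 TPM in control organoids (SD, n = 3 each). On the log2(TPM + 1) scale Arg1 rose by 3.14 (SE 0.55, 95% interval 1.82 to 4.46), with a limma adjusted p of 0.0233. A permutation test of its mean TPM, exact and two-sided, could not go under p = 0.1 with 3 against 3 libraries, and gave that value. Without control replicate 1, 2 or 3 the Arg1 log2 fold change was 3.30, 3.24 or 2.88 (limma adjusted p = 0.0762, 0.0991 or 0.0854). Without DSS replicate 3 it was 3.30 (limma adjusted p = 0.0859), so that the call was lost in these 4 cases. Without DSS replicate 2 the call held, but the log2 fold change was smaller, at 2.51 (limma adjusted p = 0.0115).

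Arg2, the mitochondrial arginase, was scarce. It had 0.65, 0.85 and 1.44 TPM in DSS organoids, against 0.2, 0.28 and 0.21 TPM in control organoids. Again the groups did not overlap, with means of 0.98 ± 0.411 TPM in DSS organoids and 0.23 ± 0.0436 TPM in control organoids (SD, n = 3 each). With the filter on low values removed, its difference of 0.67 on the log2(TPM + 1) scale had a limma adjusted p of 0.0752. The sum of both arginases was 7.63, 36.1 and 12.6 TPM in DSS organoids, against 1.36, 1.26 and 0.41 TPM in control organoids. Arg1 made up 91.5, 97.6 and 88.6% of that sum in DSS organoids, against 85.3, 77.8 and 48.8% in control organoids, so that Arg1 was the larger contributor in every DSS library and in 2 of the 3 control libraries.

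Ass1, argininosuccinate synthase, acts upstream of arginase by joining citrulline and aspartate on the way to arginine. It had 27.5, 10.6 and 21.1 TPM in DSS organoids, against 26.7, 19.7 and 10.9 TPM in control organoids. The libraries of each group were widely spread, and the ranges nearly coincided. Ass1 had a log2 fold change of 0.032, with a wide 95% interval of -0.95 to 1.02 (limma adjusted p = 0.968). Its sign turned when single libraries were left out (-0.30 without control replicate 3, -0.25 without DSS replicate 1 and -0.060 without DSS replicate 3).

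Odc1 encodes ornithine decarboxylase, the first and often limiting step of polyamine synthesis. Its levels were 200.1, 372 and 284 TPM in DSS organoids, against 299, 363 and 366 TPM in control organoids. DSS replicate 1 was the lowest and DSS replicate 2 the highest of all 6 libraries, so the groups overlapped. Odc1 had a log2 fold change of -0.30 (SE 0.22, 95% interval -0.84 to 0.23, limma adjusted p = 0.412).

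Oaz1 encodes antizyme 1, which binds the Odc1 protein. It was the most abundant of the 10 genes in DSS organoids, with 1007, 684 and 906 TPM, against 540, 508 and 528 TPM in control organoids. Every DSS library was above every control library, and the DSS libraries were spread more widely. The means were 866 ± 165 TPM in DSS organoids and 525 ± 15.8 TPM in control organoids (SD, n = 3 each). On the log2 scale Oaz1 rose by 0.70 (SE 0.15, 95% interval 0.35 to 1.06, limma adjusted p = 0.0348). The exact permutation p was 0.1, again the smallest possible. The Oaz1 call was lost without control replicate 1, 2 or 3 (log2 fold change 0.72, 0.68 or 0.71, limma adjusted p = 0.108, 0.148 or 0.112), and without DSS replicate 3 (0.66, limma adjusted p = 0.129). It was also lost after median-ratio scaling (0.64, limma adjusted p = 0.0509) and quantile normalization (0.62, limma adjusted p = 0.0518).

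Antizyme messages carry their own polyamine sensor. The reading frame ends early at a stop codon, and full-length antizyme is made only when the ribosome slips forward by 1 base there, which polyamines promote. The 60 bases around this site are shown for Oaz1 and for Oaz2, the second antizyme that rose, because both carry the same shift site. They come from the GENCODE release 21 mouse transcripts on build GRCm38, another build than the GRCm39 used for the TPM table. The capitals mark the shift site, in which the last base of the TCC codon is followed by the TGA stop. The sequences lie in the coding part of exons on the plus strand, Oaz1 at chr10:80828268-80828327 and Oaz2 at chr9:65686245-65686304.
Oaz1: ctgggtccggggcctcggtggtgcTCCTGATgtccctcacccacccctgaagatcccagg
Oaz2: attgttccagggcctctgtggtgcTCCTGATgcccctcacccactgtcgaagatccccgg
In the annotated transcripts Oaz1 has 68 codons before the stop and 227 codons once a base is skipped, and Oaz2 has 32 and 189 codons. Of the 60 bases, 49 were the same in both genes. TPM counts RNA and cannot show how often the site was shifted, so the level of antizyme protein was not measured.

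Oaz2, whose product like antizyme 1 binds ornithine decarboxylase, was much scarcer than Oaz1. It had 34.8, 26.6 and 30.6 TPM in DSS organoids, against 20.5, 19.8 and 17.4 TPM in control organoids. The groups did not overlap. Oaz2 rose by 0.64 on the log2 scale (SE 0.13, limma adjusted p = 0.0344). This call was lost without control replicate 1, 2 or 3 (log2 fold change 0.68, 0.66 or 0.57, limma adjusted p = 0.0959, 0.137 or 0.121) and without DSS replicate 3 (0.64, limma adjusted p = 0.121), and it held in 6 of the 14 alternatives tried. Oaz3, the antizyme known from testis, had at most 0.35 TPM in any library.

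Oaz1 also has a processed copy, Oaz1-ps, whose annotated transcript matched Oaz1 with 99.7% identity over 685 aligned bases. Oaz1-ps averaged 12.7 TPM in DSS organoids and 7.92 TPM in control organoids, a small share of the Oaz1 level, and did not pass the test (log2 fold change 0.64, limma adjusted p = 0.114). How reads were divided between Oaz1 and this copy was not tested.

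Azin1 encodes antizyme inhibitor 1, a relative of ornithine decarboxylase without enzyme activity that binds antizyme in its place. It had 44.5, 65.2 and 59.3 TPM in DSS organoids, against 52.9, 50.1 and 48.9 TPM in control organoids. DSS replicate 1 lay below all control libraries and the other 2 DSS libraries lay above them. Azin1 had a log2 fold change of 0.13 (95% interval -0.23 to 0.50, limma adjusted p = 0.603). Azin2, the second antizyme inhibitor, was under the filter, with 1.33, 0.65 and 0.72 TPM in DSS organoids, against 0.64, 0.21 and 0.07 TPM in control organoids. Its DSS libraries were all above the control libraries, though DSS replicate 2 and control replicate 1 were nearly level.

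Odc1 overlapped between the groups and Oaz1 was higher in DSS organoids, so Odc1 was lower there relative to its antizyme. The ratio of Odc1 to Oaz1 TPM was 0.199, 0.543 and 0.313 in DSS libraries, against 0.554, 0.714 and 0.693 in control libraries. The groups did not overlap, but DSS replicate 2 and control replicate 1 were nearly level. The means were 0.352 ± 0.175 in DSS organoids and 0.654 ± 0.087 in control organoids (SD, n = 3 each). The ratio of Oaz1 to its inhibitor Azin1 was 22.6, 10.5 and 15.3 in DSS libraries, against 10.2, 10.2 and 10.8 in control libraries. Here DSS replicate 2 lay within the control range, and DSS replicate 1 was the highest. The ratio of Odc1 to Azin1 overlapped, with 4.50, 5.70 and 4.79 in DSS libraries, against 5.65, 7.25 and 7.49 in control libraries. The ratios were built from the same 10 genes and were given no test.

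**Figure D2:**
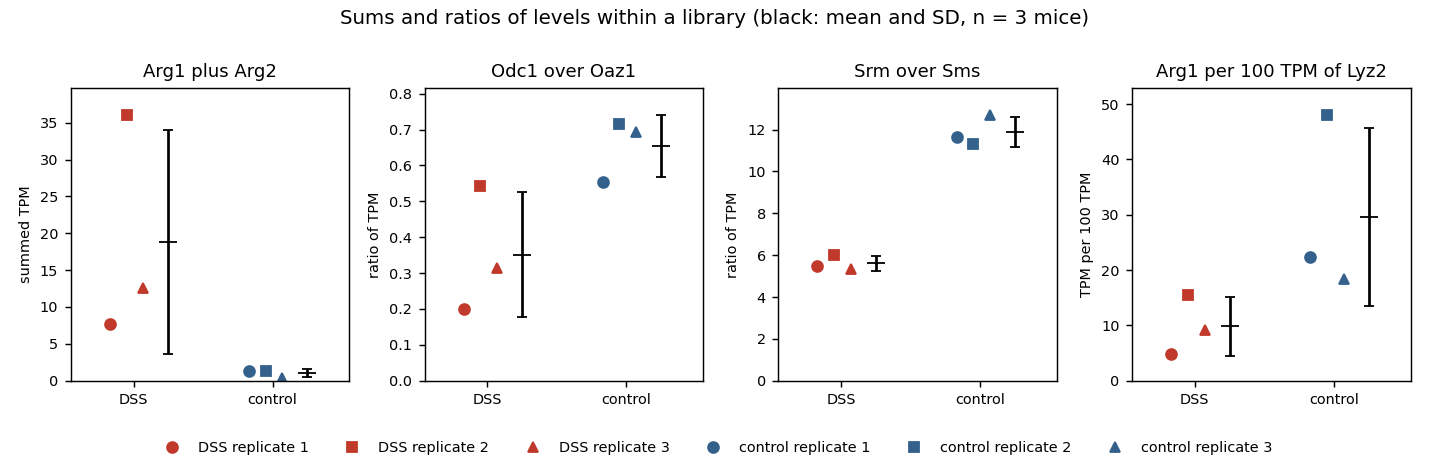
Values within each library (vertical axes, from 0) of the summed arginases in TPM, of the Odc1 to Oaz1 and the Srm to Sms ratio of TPM, and of Arg1 in TPM per 100 TPM of Lyz2, with DSS libraries in red, control libraries in blue, symbols for replicates and black bars for mean and SD. The Srm to Sms ratio separates the groups most widely of the 4, relative to its spread, at 5.32 to 6.03 in DSS libraries and 11.3 to 12.7 in control libraries. The control values of the Lyz2 ratio rest on Arg1 and Lyz2 levels of 5.19 TPM or less.

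Amd1 encodes S-adenosylmethionine decarboxylase, which supplies the aminopropyl donor for both synthases. It had 99.5, 79.9 and 74.4 TPM in DSS organoids, against 116, 119 and 119.8 TPM in control organoids. All 3 DSS libraries lay below all 3 control libraries, whose spread was small. Amd1 had a log2 fold change of -0.49 (SE 0.13, 95% interval -0.79 to -0.19), with a limma adjusted p of 0.0562 that just missed the threshold. Without DSS replicate 1 it was -0.61 (limma adjusted p = 0.00743) and passed. Amd2 is a near copy of Amd1, with 99.6% identity over 3202 aligned bases of their annotated transcripts, and held between 0.67 and 0.94 TPM in DSS organoids and between 0.85 and 1.22 TPM in control organoids. How the reads were divided between the copies was not tested, so the Amd1 level is uncertain by a part of that size or more.

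Srm, spermidine synthase, uses that donor to turn putrescine into spermidine. It had 78.3, 61.3 and 74.2 TPM in DSS organoids, against 108, 106 and 110.2 TPM in control organoids. The groups were clearly apart, and the gap between them was wider than the range within either group. The means were 71.3 ± 8.90 TPM in DSS organoids and 108 ± 2.27 TPM in control organoids (SD, n = 3 each). Srm had a log2 fold change of -0.60 (SE 0.12, 95% interval -0.88 to -0.33, limma adjusted p = 0.0281), and the exact permutation p was 0.1. Without control replicate 1, 2 or 3 the log2 fold change was -0.60, -0.62 or -0.59 (limma adjusted p = 0.101, 0.128 or 0.104), and without DSS replicate 3 it was -0.63 (limma adjusted p = 0.0971), so the call was lost but the size was not.

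Sms, spermine synthase, makes spermine from spermidine and was far less abundant. It had 14.3, 10.2 and 13.9 TPM in DSS organoids, against 9.30, 9.36 and 8.68 TPM in control organoids. DSS replicate 2 was the closest to the control libraries, and the groups did not overlap. Sms had a log2 fold change of 0.43 (SE 0.15, 95% interval 0.068 to 0.80, limma adjusted p = 0.119). Of the 14 alternatives tried, it passed in 1, with DSS replicate 2 left out (0.58, limma adjusted p = 0.0315). With Srm lower and Sms higher, the ratio of Srm to Sms TPM was 5.48, 6.03 and 5.32 in DSS libraries, against 11.6, 11.3 and 12.7 in control libraries. The means of this ratio were 5.61 ± 0.371 in DSS organoids and 11.9 ± 0.733 in control organoids (SD, n = 3 each).

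Sat1 encodes spermidine/spermine N1-acetyltransferase, the first step of polyamine breakdown and export. It had 349.8, 635 and 348 TPM in DSS organoids, against 615, 582 and 519 TPM in control organoids. DSS replicate 2 was the highest library of all, while the other 2 DSS libraries were the lowest, so that the overlap came from that library alone. Sat1 had a log2 fold change of -0.42 (SE 0.24, 95% interval -0.99 to 0.15, limma adjusted p = 0.291). Without DSS replicate 2 it was -0.71 and passed (limma adjusted p = 0.0135). The ratio of Odc1 to Sat1, synthesis set against breakdown, overlapped, at 0.572, 0.585 and 0.815 in DSS libraries, against 0.486, 0.624 and 0.704 in control libraries. Sms and Sat1 lie on the X chromosome. The 4 Y-linked genes looked at (Ddx3y, Eif2s3y, Kdm5d and Uty) were listed at 0 in all 6 libraries, and Xist was between 36.5 and 59.2 TPM in DSS organoids and between 54.3 and 61.5 TPM in control organoids.

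**Figure D3:**
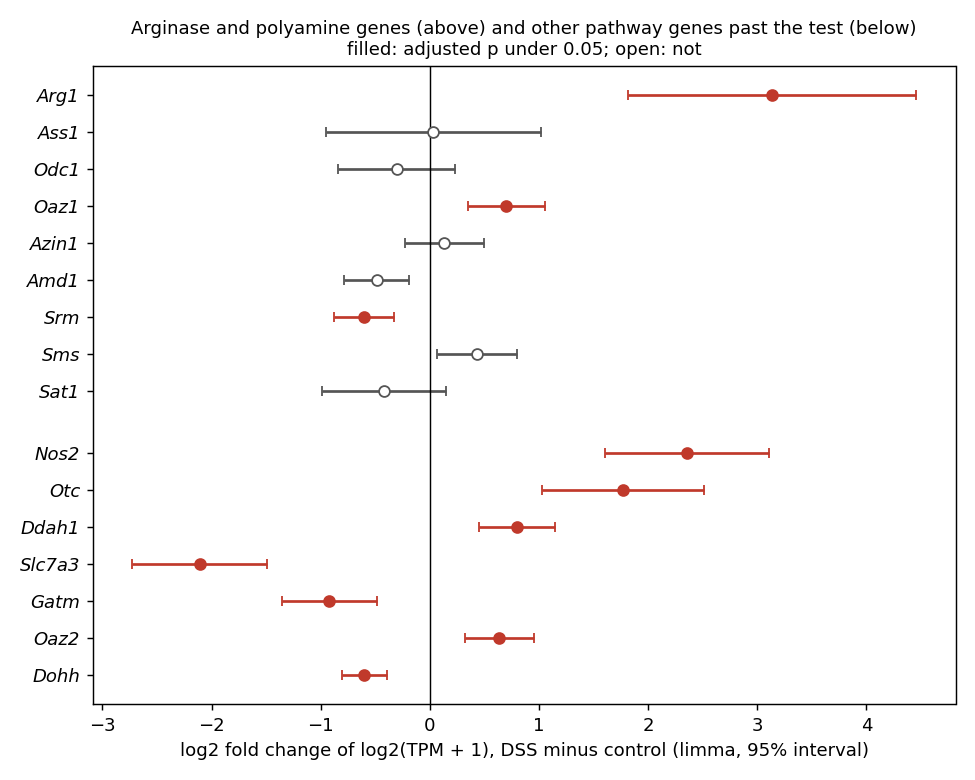
Log2 fold change of log2(TPM + 1), DSS minus control (horizontal axis), with its 95% interval from limma for the 9 tested genes of the set (above) and for the 7 other pathway genes that passed (below); filled points have an adjusted p under 0.05. Arg1 lies at 3.14, Oaz1 at 0.70 and Srm at -0.60, and the intervals of Amd1 and Sms exclude 0 although their adjusted p values were 0.0562 and 0.119.

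Ordered by mean level, DSS organoids had Oaz1 first (866 TPM), then Sat1 (444 TPM), Odc1 (285 TPM), Amd1 (84.6 TPM), Srm (71.3 TPM), Azin1 (56.3 TPM), Ass1 (19.7 TPM), Arg1 (17.8 TPM), Sms (12.8 TPM) and Arg2 (0.98 TPM). Several neighbours in that order overlapped in their libraries, namely Sat1 with Odc1, Amd1 with Srm, Srm with Azin1, Ass1 with Arg1 and Arg1 with Sms. Control organoids had Sat1 first (572 TPM), then Oaz1 (525 TPM), Odc1 (343 TPM), Amd1 (118 TPM), Srm (108 TPM), Azin1 (50.6 TPM), Ass1 (19.1 TPM), Sms (9.11 TPM), Arg1 (0.78 TPM) and Arg2 (0.23 TPM). There only Sat1 with Oaz1 and Arg1 with Arg2 overlapped. Arg1 thus stood among genes such as Ass1 and Sms in DSS organoids and close to Arg2 in control organoids.

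Arg1 was the one gene of the 10 that passed with an absolute log2 fold change of at least 1, and the genes whose pattern was most like it were sought among 9216 tested genes with a mean of at least 5 TPM in either group. Likeness was the root mean square difference of log2(TPM + 1) over the 6 libraries, after each gene was centred on its mean. The 5 nearest were Cd36 (0.38), Mmp12 (0.39), Steap4 (0.40), Tyrobp (0.47) and Vim (0.47).

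Cd36, a fatty acid and scavenger receptor, had 4.56, 16.8 and 9.69 TPM in DSS organoids, against 0.2, 0.09 and 0.2 TPM in control organoids. Mmp12, macrophage elastase, had 9.27, 57.7 and 18.5 TPM in DSS organoids, against 0.78, 0.71 and 0.49 TPM in control organoids. Steap4, a metalloreductase, had 9.65, 22.2 and 13.6 TPM in DSS organoids, against 0.65, 0.75 and 0.51 TPM in control organoids. All 3 were highest in DSS replicate 2 and lowest among DSS libraries in replicate 1, the same order as Arg1. Tyrobp, a signalling adaptor of myeloid cells, had 5.24, 14.6 and 11.2 TPM in DSS organoids and was listed at 0 in all 3 control libraries. Vim, an intermediate filament of mesenchymal and blood cells, had 5.92, 15.9 and 10.2 TPM in DSS organoids, against 0.67, 1.51 and 0.39 TPM in control organoids. These 2 followed that order as well. All 5 were picked for likeness to Arg1 over the same 6 libraries, so the shared order comes with that choice and is no separate result.

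Most of the listed markers of macrophages and other myeloid cells were higher in DSS organoids, as Arg1 was. Of the 20 markers looked at, 12 were tested, and 7 passed as higher in DSS organoids and none as lower by limma. Over all tested genes, 6.45% passed as higher and 3.89% as lower. Of the markers, 1 (Mrc1) was lower at an unadjusted limma p under 0.05. Tyrobp, Fcer1g, Itgam, Spi1, Laptm5 and Cd52 had control means under 1 TPM. They reached the filter through their DSS libraries, so they could pass only as higher. Counting those under the filter too, 15 of the 20 had every DSS library above every control library. Among the 12 tested markers 9 did, against 21.1% of all tested genes. Tyrobp, Fcer1g, Itgam, Spi1, Laptm5 and Cd52 were among these 9, and the filter favoured that outcome for them. The count is therefore not read against that share. Of the other tested markers, Lyz2, Cd68 and Ctss lay above, Cd14 and Mertk overlapped, and Mrc1 lay below. The summed level of the 20 was between 333 and 483 TPM in DSS organoids and between 122 and 169 TPM in control organoids, and no marker was at 0 in all 6 libraries. Most of the control sum came from Ctss and Cd14. Cd14 overlapped between groups, with means of 71.2 TPM in DSS organoids and 57.7 TPM in control organoids (limma adjusted p = 0.389). The most abundant in DSS organoids was Lyz2, macrophage lysozyme, with 145, 227 and 123 TPM, against 5.19, 2.04 and 1.09 TPM in control organoids. Like Arg1 it was highest in DSS replicate 2, but its lowest DSS library was replicate 3. Next was Ctss, cathepsin S, with means of 106 TPM in DSS organoids and 69.7 TPM in control organoids, which did not pass (limma adjusted p = 0.0598).

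Among genes that define macrophages more strictly, Csf1r, Adgre1, C1qa, C1qb and C1qc were low. The order of Arg1 among the DSS libraries was shared by some of the listed markers and not by others. Csf1r, the receptor for macrophage colony-stimulating factor, had 1.08, 2.79 and 1.34 TPM in DSS organoids, against 0.03, 0.09 and 0.07 TPM in control organoids. Adgre1, which encodes F4/80, had 0.9, 1.7 and 1.08 TPM in DSS organoids, against 0.04, 0.04 and 0 TPM in control organoids. Both were highest in DSS replicate 2 and lowest among DSS libraries in replicate 1, as Arg1 was. Cd68, Itgam, Spi1, Ptprc and Cd52 followed that order too. Cd68 had 7.26, 17.9 and 8.3 TPM in DSS organoids, against 4.87, 2.3 and 3.63 TPM in control organoids (limma adjusted p = 0.0630). The order differed for C1qa, a complement subunit made by macrophages, with 1.03, 0.67 and 0.58 TPM in DSS organoids and 0 in all control libraries. It also differed for Fcer1g, Laptm5, Cd14, C1qb and C1qc, which were lowest among DSS libraries in replicate 3. Mertk and Ctss were highest there, while Cx3cr1 was at 0 in all DSS libraries. Per 100 TPM of Lyz2, Arg1 was at 4.80, 15.5 and 9.09 TPM in DSS libraries, against 22.4, 48.0 and 18.3 TPM in control libraries, so that this ratio was lower in every DSS library. The control ratios are uncertain, because they rest on Arg1 of 0.2 to 1.16 TPM and Lyz2 of 1.09 to 5.19 TPM. In these bulk libraries, more cells of a type and more RNA per cell cannot be told apart. The part of myeloid cells in the Arg1 difference was not tested.

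Arg1 is also a marker of alternatively activated macrophages, and other markers of that state were scarce. Of 8 such markers, Retnla, Mgl2, Cd163 and Ccl24 were listed at 0 in all 6 libraries. The sum of the 8 was between 0.82 and 1.3 TPM in DSS organoids and between 2.69 and 3.45 TPM in control organoids. Mrc1, the mannose receptor, made up most of the sum except in DSS replicate 1, where Chil3 was at 0.58 TPM. Mrc1 had 0.16, 1.27 and 1.22 TPM in DSS organoids, against 3.13, 2.62 and 3.45 TPM in control organoids (log2 fold change -1.17, limma adjusted p = 0.0548).

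**Figure D4:**
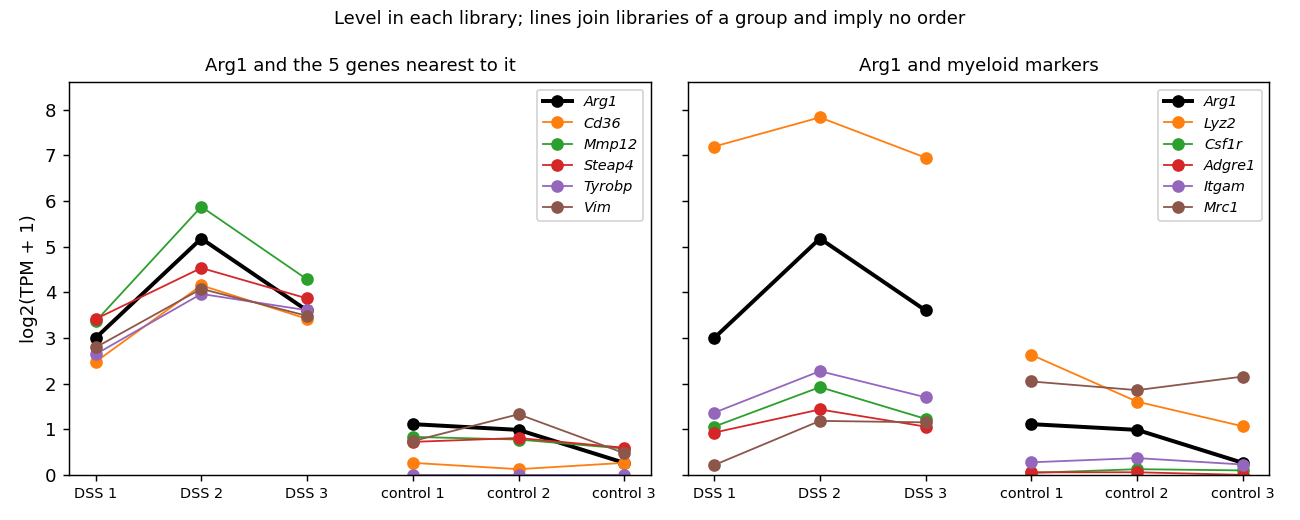
Log2(TPM + 1) (vertical axis) of Arg1 (black) in the 3 DSS and 3 control libraries (horizontal axis), beside the 5 genes nearest to it (left) and 5 myeloid markers (right). Arg1 and the 5 genes, which were picked for likeness to it over these libraries, are all highest in DSS replicate 2 and low in control libraries. Lyz2 is above Arg1 in every library, and Mrc1 is lower in the DSS libraries.

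Markers of other cells were at or near 0 or did not pass. Lymphocyte markers summed to between 0.08 and 0.38 TPM in DSS organoids and between 0.13 and 0.59 TPM in control organoids, with Cd3e, Cd4, Cd8a and Nkg7 at 0 throughout. Fibroblast and muscle markers summed to between 1.01 and 2.39 TPM in DSS organoids and between 1.23 and 2.68 TPM in control organoids, and Col1a2, Col3a1, Lum and Cnn1 were at 0 in every library. Endothelial markers summed to between 0.33 and 0.47 TPM in DSS organoids and between 0.40 and 0.58 TPM in control organoids, with Cdh5, Kdr and Cldn5 at 0 throughout. Of 10 neutrophil markers, 3 were tested (Ly6g, S100a8 and S100a9) and none passed by limma (1, S100a9, at an unadjusted p under 0.05), while Camp and Cxcr2 were at 0. Counting those under the filter too, 3 of the 10 (S100a8, S100a9 and Mmp8) had every DSS library above every control library. Over all tested genes 21.1% did, and with a list this small the count is not read as a result about neutrophils. The sum of this list, nearly all of it Ly6g, was between 459.6 TPM and 2921 TPM in DSS organoids and between 1471 and 2747 TPM in control organoids. Mpo, Elane and Csf3r were at most 0.37, 0.29 and 0.29 TPM in any library, so the sum is not read as a level of neutrophils. Which cells held the Ly6g RNA was not tested.

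The summed level of cycling cell markers was above the control libraries in every DSS library and was highest in DSS replicate 1, where Odc1 was lowest. The 10 cycling markers summed to 1079, 339.9 and 648 TPM in DSS organoids, against 269, 281 and 290.2 TPM in control organoids. Of the 10, 4 passed as higher, where 6.45% of all tested genes did. Pcna, Mcm2 and Mcm5 overlapped between groups. In DSS replicate 2, Mcm2 (12.5 TPM) and Mcm5 (11.9 TPM) lay below every control library. Like the cycling sum, Ass1, Oaz1, Amd1, Srm and Sms were highest in replicate 1 among the DSS libraries. Arg1, Odc1, Azin1 and Sat1 were highest in replicate 2, and Arg2 was highest in replicate 3. The part of cell cycling in these differences was not tested.

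Promoter sequence was looked at for the 6 genes of the set with an entry in the RefSeq table for GRCm38.p6 (Odc1, Oaz1, Amd1, Sms, Sat1 and Ass1), from 250 bases before to 50 bases after the start. The E-box CACGTG, which reads the same on both strands and is the motif that MYC is known to bind, was present in 1 of the 2 Sms promoters, at base -196 from the start, and in the Ass1 promoter, at base -36, where 7.15% of all 32851 promoters in the table held it. The letters TATAAA of the TATA box, on either strand, were present for Oaz1 at base -3, where 13.6% of all promoters held them. None of these matches is evidence of a bound factor.

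Outside the 10 genes, 63 genes of the surrounding pathways were looked at in 6 lists. Of these, 45 were tested, 4 passed as higher in DSS organoids, 3 passed as lower and 38 did not pass. Over all tested genes, 6.45% passed as higher and 3.89% as lower, and with lists this small the counts are not read as a result about the pathways. A further 18 were under the filter, 4 of them at 0 in all 6 libraries. Of the 7 that passed, 5 belonged to arginine supply, the urea cycle and nitric oxide, 1 was the antizyme Oaz2, and 1 belonged to hypusine synthesis. The median log2 fold change of the 45 was -0.0040, against 0.050 over all tested genes.

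Arginine is also the substrate of nitric oxide synthase. Nos2, the inducible form, had 36.6, 19.8 and 18.3 TPM in DSS organoids, against 5.05, 4.3 and 2.48 TPM in control organoids (log2 fold change 2.36, SE 0.32, limma adjusted p = 0.0127). Nos2 libraries of the groups were well apart, and the highest was DSS replicate 1, in which Arg1 was the lowest of the DSS libraries. The ratio of summed arginases to Nos2 was uneven across DSS libraries, at 0.209, 1.82 and 0.689 in DSS libraries, against 0.269, 0.293 and 0.165 in control libraries. Ddah1, which clears methylated arginines that inhibit nitric oxide synthase, had 47.6, 51.8 and 58.4 TPM in DSS organoids, against 28.7, 35.4 and 25.8 TPM in control organoids (log2 fold change 0.80, limma adjusted p = 0.0252). Without control replicate 2 or DSS replicate 3 the Nos2 log2 fold change was 2.43 or 2.54 (limma adjusted p = 0.0684 or 0.0546). Without control replicate 1, 2 or 3 or DSS replicate 3 the Ddah1 log2 fold change was 0.77, 0.92, 0.70 or 0.72 (limma adjusted p = 0.0944, 0.0720, 0.0904 or 0.104).

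Otc, ornithine transcarbamylase, consumes ornithine to make citrulline in mitochondria. It had 3.31, 1.48 and 4.44 TPM in DSS organoids, against 0.17, 0.11 and 0.12 TPM in control organoids (log2 fold change 1.77, SE 0.31, limma adjusted p = 0.0231), so it was low in both groups and did not overlap. Like Arg1, it reached the filter through its DSS libraries, with a control mean of 0.133 TPM. Slc7a3, a cationic amino acid transporter, fell to 1.43, 2.63 and 1.71 TPM in DSS organoids, against 8.95, 10.1 and 16.3 TPM in control organoids (log2 fold change -2.11, SE 0.26, limma adjusted p = 0.0110). Slc7a1, the more abundant arginine transporter, did not pass, with 24.5, 57.6 and 68.8 TPM in DSS organoids, against 61.3, 61.5 and 61.8 TPM in control organoids. Gatm, which uses arginine for creatine synthesis, had 1.46, 0.99 and 1.36 TPM in DSS organoids, against 3.53, 3.6 and 2.75 TPM in control organoids (log2 fold change -0.92, limma adjusted p = 0.0298). Asl, which follows Ass1, overlapped between groups, at 40.4 to 51.1 TPM in DSS organoids and 48.2 to 52.3 TPM in control organoids.

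Calls of these 3 genes also turned on single libraries. Otc did not pass without control replicate 1, 2 or 3 or DSS replicate 3 (log2 fold change 1.80, 1.76, 1.77 or 1.53, limma adjusted p = 0.0816, 0.107, 0.0826 or 0.0867). Slc7a3 did not pass without control replicate 2 or DSS replicate 3 (log2 fold change -2.19 or -2.07, limma adjusted p = 0.0625 or 0.0616). Gatm did not pass without control replicate 1, 2 or 3 or DSS replicate 3 (log2 fold change -0.88, -0.87, -1.01 or -0.95, limma adjusted p = 0.111, 0.148, 0.0791 or 0.101).

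**Figure D5:**
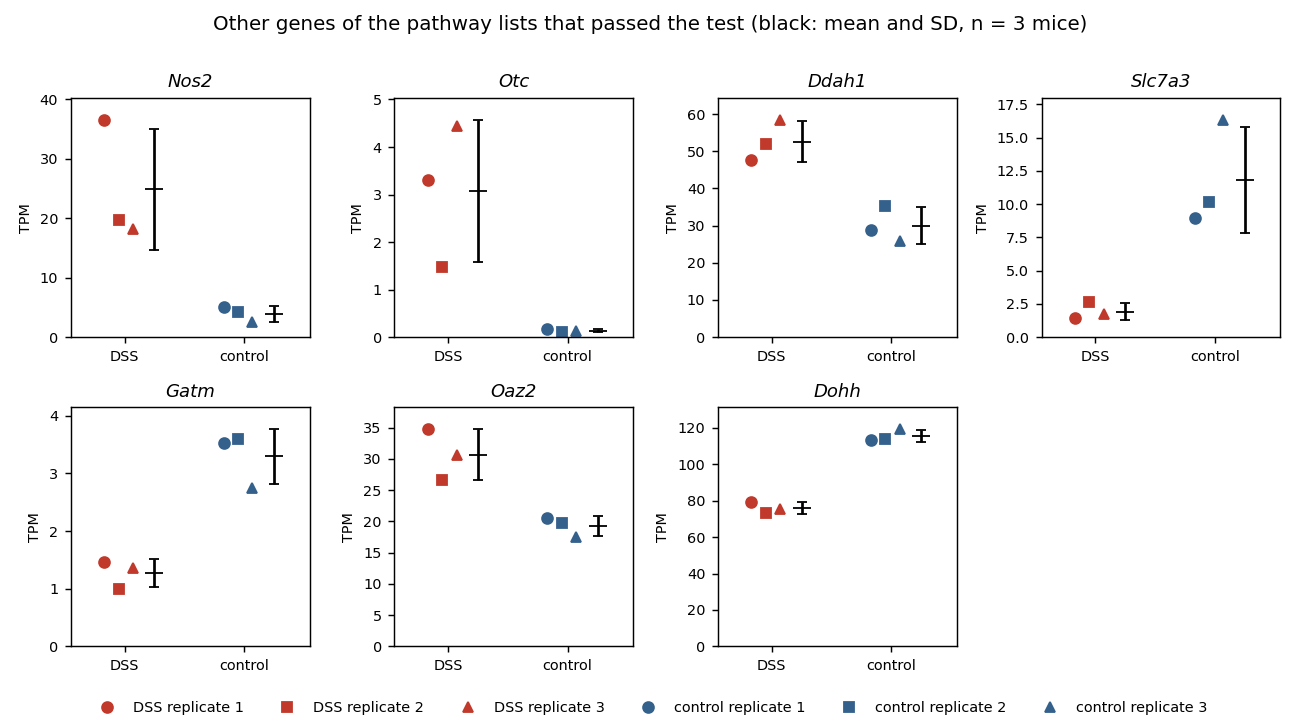
TPM (vertical axes, from 0) of the 7 other pathway genes that passed, in each DSS library (red) and each control library (blue), with symbols for replicates and black bars for mean and SD. The DSS libraries sit above the control libraries for Nos2, Otc, Ddah1 and Oaz2 and sit below them for Slc7a3, Gatm and Dohh.

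Spermidine is the source of hypusine, a modified lysine found in the translation factor eIF5A. Dohh, the hydroxylase that completes hypusine, had 79.2, 73.1 and 75.6 TPM in DSS organoids, against 113, 114 and 119 TPM in control organoids. It fell by 0.60 on the log2 scale (SE 0.087, limma adjusted p = 0.0148), close to the size of the Srm difference, and its libraries were tightly grouped. Without control replicate 1, 2 or 3 or DSS replicate 3 the Dohh log2 fold change was -0.61, -0.61, -0.58 or -0.60 (limma adjusted p = 0.0681, 0.0957, 0.0698 or 0.0740). Eif5a itself was among the most abundant genes here, with 1229.6, 1031 and 1148 TPM in DSS organoids, against 1361, 1451 and 1414 TPM in control organoids. All 3 DSS libraries of Eif5a were below all control libraries, but it did not pass (log2 fold change -0.31, limma adjusted p = 0.0827). Dhps, the enzyme of the first hypusine step, overlapped, at 32.2 to 37.8 TPM in DSS organoids and 27.9 to 36.7 TPM in control organoids.

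No gene passed among the 10 tested in the ornithine, proline and glutamate routes (median log2 fold change 0.17), the 11 tested in polyamine breakdown and transport (median -0.0100) or the 10 tested in S-adenosylmethionine supply and methylthioadenosine salvage (median -0.028), by limma. At an unadjusted p under 0.05 there were 1 higher and 0 lower, 2 higher and 1 lower, and 1 higher and 2 lower in these 3 lists, in that order. Oat, ornithine aminotransferase, which links ornithine to glutamate and proline, had 81.6, 44.4 and 69.3 TPM in DSS organoids, against 42.6, 40.4 and 41.8 TPM in control organoids (log2 fold change 0.59, limma adjusted p = 0.129). Its DSS libraries were all above the control libraries, with DSS replicate 2 close to them. Sat2, a relative of Sat1, had 0.58, 2.34 and 1.33 TPM in DSS organoids, against 6.89, 3.14 and 4.06 TPM in control organoids (log2 fold change -1.25, limma adjusted p = 0.0693). Smox, spermine oxidase, overlapped, with 24.3, 87.4 and 57.1 TPM in DSS organoids, against 48.7, 57.8 and 74.2 TPM in control organoids. Mat2a, the enzyme that makes S-adenosylmethionine, had 191, 723 and 630.2 TPM in DSS organoids, against 993, 983 and 938 TPM in control organoids (log2 fold change -1.13, 95% interval -2.25 to -0.0032, limma adjusted p = 0.168), and DSS replicate 1 was the lowest by far.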

How the data were processed

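RNA of 6 libraries (3 DSS, 3 control) was measured by RNA-seq. Per the labels and the methods of the study, the authors trimmed reads with Trim Galore 0.6.7 and cutadapt 3.5, mapped them to GRCm39 with STAR (2.7.7a for the reference, 2.7.10a for mapping) and deposited gene TPM from RSEM 1.3.1. The depth is not given in the sources used here, and the library kit is not stated to keep strand, so overlapping antisense genes may share reads. All 6 columns were mapped to samples by name. The table states no test, and TPM are not counts, so limma 3.58.1 (R 4.3.3) was run on log2(TPM + 1) with a mean-variance trend over genes with a mean of at least 1 TPM, with Benjamini-Hochberg adjustment. Single genes were also given an exact two-sided permutation test over 20 arrangements. The code was tested on simulated data. P-values measure the spread between these mice. No 2 libraries had equal TPM in more than 75 of the tested genes.

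The genes, pathway lists and marker lists were chosen with earlier results of these data known. Named genes were the 10 genes of the set, pathway genes past the threshold (up to 6 a list), the 5 nearest genes to a gene that passed with an absolute log2 fold change of at least 1, and the 2 most abundant tested markers or markers at 0. Named after their values were seen were Amd2, Oaz1-ps, Slc7a1, Asl, Dhps, Oat, Sat2, Smox, Mat2a, Eif5a, Oaz3, Azin2, Csf1r, Adgre1, Mrc1, Chil3, C1qa, C1qb, C1qc, Mertk, Cx3cr1, Fcer1g, Itgam, Spi1, Laptm5, Cd52, Cd14, Cd68, Ptprc, Mmp8, Mpo, Elane, Csf3r, Epcam, Cdx2, Pcna, Mcm2, Mcm5, Slc7a5, Slc3a2, Asns and Aldh18a1. There were 14 alternatives: pseudocount 0.1, no filter, a mean of at least 5 TPM, median-ratio scaling, quantile normalization, no trend, a replicate block, each library left out, and control replicate 3 with DSS replicate 1 left out together.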

Additional observations from a re-analysis of the deposited data

How the results depend on the processing

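Relative to the 1204 genes called over the whole table (751 higher, 453 lower), leaving out single libraries gave 44 to 2515 genes (29 to 1693 higher, 15 to 822 lower), and no filter gave 759 (456 higher). The share of higher among called genes was 62.4%, against 51.4% after median-ratio scaling (622 higher, 588 lower) and 48.2% after quantile normalization (564 higher, 606 lower). Of the 10 genes of the set, 2 were called higher and 1 lower. The higher count was 1 with no filter, 1 after median-ratio scaling, 1 after quantile normalization, 1 without control replicate 3 and DSS replicate 1 together, and 0 to 3 with single libraries left out. The lower count was 2 without that pair and 0 to 2 with single libraries left out. The other pathway genes had 0 to 6 higher and 0 to 6 lower calls with single libraries left out, and 5 lower after quantile normalization. With single libraries left out, log2 fold changes ran from 2.51 to 3.6 for Arg1, 0.58 to 0.86 for Oaz1, -0.67 to -0.50 for Srm, -0.61 to -0.40 for Amd1, 0.35 to 0.58 for Sms, -0.71 to -0.27 for Sat1 and -0.30 to 0.40 for Ass1, and the median of the tested genes ran from -0.25 to 0.17. Oaz1 lost its call at 0.70 with no filter (limma adjusted p = 0.0666), 0.64 after median-ratio scaling, 0.62 after quantile normalization and 0.59 without the pair (limma adjusted p = 0.0625), and Amd1 gained one at -0.60 without the pair (limma adjusted p = 0.0243). Oaz2 lost its call at 0.64 with no filter (limma adjusted p = 0.0545), 0.58 after quantile normalization (0.0524) and 0.48 without the pair (0.0565), Gatm at -0.92 with no filter (0.0519) and Otc at 1.69 without the pair (0.0599). Ass1 turned sign to -0.024 after median-ratio scaling, -0.033 after quantile normalization and -0.58 without the pair. Over the alternatives, the limma adjusted p ran from 0.00919 to 0.0991 for Arg1 (10 of 14 passed), 0.00711 to 0.148 for Oaz1 (5 of 14) and 0.0116 to 0.128 for Srm (9 of 14), and none of these turned sign. Fits with libraries left out had fewer samples. Calls over the whole table rose to 2515 or 1888 without DSS replicate 1 or 2, and fell without any other single library. The cause of lost and gained calls was not tested.

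There was no clear sign that replicate numbers pair the samples: deviations of same-numbered libraries correlated at 0.20, 0.031 and 0.035, and 2 of 6 libraries correlated best with their own number. So few libraries cannot exclude a pairing. With the number as a replicate block, 531 genes were called (346 higher, 185 lower), with 1 of the 10 genes of the set higher and 0 lower, and 2 higher and 1 lower among the other pathway genes. Oaz1 under this block was 0.70 (limma adjusted p = 0.0506) and Srm was -0.60 (limma adjusted p = 0.0567). The calls of Oaz2, Ddah1, Gatm and Dohh were also lost (limma adjusted p = 0.0632, 0.0554, 0.0720 and 0.0506).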

Other observations

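Several genes of amino acid supply were lowest of all 6 libraries in DSS replicate 1, a pattern picked out after the values were seen and given no test. Slc7a5, the large neutral amino acid transporter, had 38.5 TPM in DSS replicate 1, 99.5 in DSS replicate 2 and 122 in DSS replicate 3, against 93.5, 98.2 and 94.0 TPM in control organoids. Its partner chain Slc3a2 had 171, 286 and 324 TPM in DSS organoids, against 329, 313 and 311 TPM in control organoids. Asns, asparagine synthetase, had 183, 337 and 371 TPM in DSS organoids, against 296, 294 and 285 TPM in control organoids. Aldh18a1, the first enzyme of proline synthesis from glutamate, had 58.6, 134 and 144 TPM in DSS organoids, against 113, 109 and 121 TPM in control organoids. None of these 4 passed by limma, and 0 of the 4 had an unadjusted p under 0.05.

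Over the 54 tested genes of the set and the pathway lists, DSS replicate 1 was the lowest DSS library for 22, DSS replicate 2 for 27 and DSS replicate 3 for 5. Over all tested genes the shares were 47.6%, 36.4% and 16% for DSS replicates 1, 2 and 3.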
